A study of Homo sapiens with 6 samples.

Results

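The long arm of human chromosome 12 between 50.9 and 89.7 Mb was described gene by gene in parental and onvansertib-resistant H526 cells. The members were all genes of the deposited table that start in this interval (GRCh38) and have a mean normalised value of at least 10 over the 6 libraries. There were 250 of them, out of 835 genes with such a mean on chromosome 12 and 16347 in the genome. The table holds 874 annotated rows that start in the interval, of which 624 were under that mean and 447 of these were at 0 in every library. The members comprised 213 protein-coding genes, 32 lncRNA genes and 5 pseudogenes. The interval was chosen by the log2 fold changes of its genes between resistant and parental cells, which were mostly negative, so their change between the groups is given as a description and is not tested as a block.

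H526 is an established cell line of small cell lung cancer, and onvansertib is an oral inhibitor of the mitotic kinase PLK1. RNA was sequenced from 3 libraries of parental cells and 3 libraries of resistant cells, which had been selected over a year in onvansertib raised stepwise from 10 to 75 nM. The resistant libraries carry the numbers 7 to 9, RNA of each group was harvested at 3 separate times, and the labels do not say whether the resistant line is 1 clone. The study calls these separate samples and does not say whether the harvests came from separate cultures, so p-values measure the spread between these libraries, which may be technical in part.

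This stretch of chromosome 12 is dense in genes near its start and sparse further along. It carries the HOXC cluster of homeobox genes, the cluster of type II keratins, the kinase genes CDK2 and CDK4, the STAT2 and STAT6 genes of cytokine signalling, and MDM2, which encodes a ubiquitin ligase. CDK4 and MDM2 are well known for being amplified together in some tumours. Several members encode single subunits of complexes whose other subunits are encoded elsewhere, which allows a member to be set beside its partners.

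The values were estimated to rest on 22358897 to 28512571 reads per library, with 3 reads worth 2.67 to 3.22 units. Both groups had the tuft-cell-like profile known for this line: POU2F3, the defining transcription factor, was at 25809 ± 1178 (SD, n = 3) in parental and 27273 ± 535 in resistant cells. The 8 listed markers of this state did not move together: in 6 of them every resistant library lay above every parental one (24.0% of all genes tested) and in the other two every one lay below (25.9%). Among the 6 were TRPM5 (189 ± 39.2 against 643 ± 116), CHAT (54.6 ± 9.50 against 181 ± 23.1) and PTGS1 (1033 ± 187 against 1742 ± 135). Lower were ASCL2 (8826 ± 308 against 6376 ± 195) and AVIL, the only one that lies in the interval. The summed level of 6 fibroblast markers was 144 to 192 in the parental and 385 to 627 in the resistant libraries, mostly COL1A1 and COL1A2. Only in these 2 of the 6 did every resistant library lie above every parental one (24.0% of all genes tested). The resistant mean was lower for COL3A1 (18.0 against 10.6) and LUM (6.27 against 4.74) and higher for PDGFRB (4.10 against 13.6). DCN was at or under 3 reads in all libraries. The part of the fibroblast markers in the results below was not tested. The summed level of 5 blood cell markers was 13.0 to 31.2 over all libraries. In bulk RNA, fewer cells with a transcript and less transcript per cell cannot be told apart.

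The members were shifted down together in the resistant cells. A log2 fold change here is the difference of mean log2(value + 1), resistant minus parental. Its median over the 250 members was -0.54, with quartiles of -0.80 and -0.25, and 214 members (85.6%) were below 0. Over the 15512 genes tested on other chromosomes the median was 0.01 and 49.0% were below 0. The median member was at 69.1% of its parental mean. By limma with Benjamini-Hochberg adjustment, 149 members were called lower (adjusted p under 0.05) where 19.8% of all genes tested were, and 6 were called higher where 17.8% of all genes were. The remaining 95 members were not called. All 3 resistant libraries lay under all 3 parental ones for 165 members (25.9% of all genes tested) and above them for 9 (24.0% of all genes tested). These counts restate the contrast that chose the interval, and nothing is read from them.

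**Figure D1:**
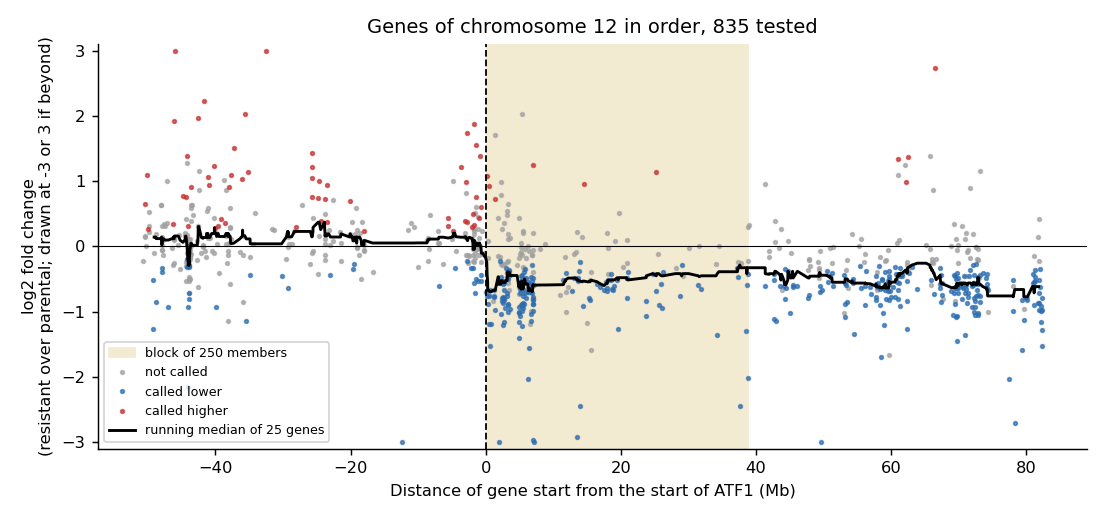
Log2 fold change (resistant over parental, log2(value + 1) scale) of the 835 genes tested on chromosome 12 against the distance of their start from the start of ATF1 in Mb; the black line is the running median of 25 genes and the shaded band is the interval of the 250 members. The line steps down at the dashed mark and stays below 0 to the last gene, past the right side of the band.

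The shift was alike in the 3 resistant libraries. Against the mean of the parental libraries, the median member was at -0.51 in resistant library 7, at -0.56 in library 8 and at -0.54 in library 9 on the log2 scale. As a deviation from the 6-library mean of a gene, the median deviation was 0.30, 0.27 and 0.27 in the parental libraries and -0.26, -0.27 and -0.29 in the resistant ones. The groups differ here by the contrast that chose the interval, and the values describe how alike the libraries of a group were. The same measure stayed between -0.04 and 0.06 for the 299 genes of chromosome 12 before the shift and was at most 0.01 in size on other chromosomes.

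**Figure D2:**
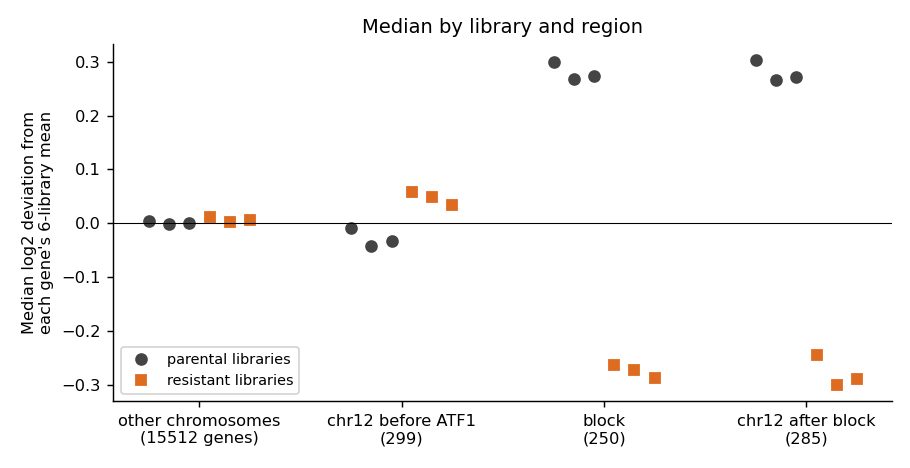
Median log2 deviation of genes from their 6-library mean, for each parental library (circles) and each resistant library (squares) in 4 sets of genes. The groups separate in the block and in the rest of chromosome 12 after it, at about 0.3 above and below 0, and lie close to 0 elsewhere.

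The left edge of the shift was placed at ATF1 by dividing the 835 log2 fold changes, in order of position, into runs of at least 20 genes with the smallest summed absolute deviation. This gave a single change point. The 299 genes up to DIP2B (chr12:50504985-50748657) had a median of 0.09, and the 536 genes from ATF1 (chr12:50763710-50821162) onwards had a median of -0.55. ATF1, which encodes a CREB-family transcription factor, lies just outside the interval and had 775, 701 and 599 units in the parental libraries against 421, 460 and 395 in the resistant ones. Its neighbour DIP2B had 4833, 3908 and 4533 units against 4648, 4184 and 3546, and these overlap.

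The edge was less sharp than 1 gene. SMARCD1, a SWI/SNF subunit gene, and COX14, a cytochrome oxidase assembly gene, start before DIP2B at 50085200 and 50112082 and were called lower, with log2 fold changes of -0.44 and -0.53. Between them and ATF1 lie CERS5 (-0.24), LIMA1 (0.24), LARP4 (-0.11) and DIP2B (-0.10), none of which was called. Placed separately in each resistant library, the edge fell at ATF1 in library 7, at SMARCD1 in library 8 and at DIP2B in library 9. Just inside the interval stood METTL7A at 1.08 (called higher), SLC11A2 at -0.76 (called lower) and LETMD1 at 0.09 (not called).

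No right edge was found at 89.7 Mb. The last members in order of start were POC1B at -0.59, POC1B-GALNT4 at -2.02, GALNT4 at 0.29, POC1B-AS1 at -0.22 and ATP2B1 at -0.42. GALNT4 and POC1B-AS1 were not called, and the others, among them ATP2B1, a plasma membrane calcium pump gene, were called lower. Just outside stood ATP2B1-AS1 at 0.32 (not called) and BTG1, an antiproliferative gene, at -0.60 (called lower). After them came BTG1-DT at 0.95, PLEKHG7 at -0.07 and EEA1 at -0.16, none of which was called. The 285 genes tested after the interval had a median of -0.56, with 88.8% below 0. The shifted run ended only with ZNF268 (chr12:133181409-133214832), the last gene tested on the chromosome, whose values of 661, 613 and 532 in parental libraries lay above 322, 252 and 509 in resistant ones. The end of the interval at 89.7 Mb therefore does not correspond to any step in these data.

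Within the interval the shift was uneven but continuous. In 10 successive runs of 25 members the median log2 fold change lay between -0.40 (HOXC12 to ZNF385A) and -0.68 (HSD17B6 to AGAP2), and between 19 and 23 members of each run were below 0. The median was -0.57 for the 135 members on the plus strand and -0.49 for the 115 on the minus strand. Across tertiles of transcript GC content the medians were -0.51, -0.66 and -0.52, and across tertiles of transcript length -0.66, -0.53 and -0.51.

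The change of the members differed with their level. In the 84 members of the highest tertile by mean value (1004 to 24908 units) every gene was below 0, the median was -0.58 and 76 were called lower. In the 83 members of the middle tertile (176 to 983 units) the median was -0.59 and 91.6% were below 0. In the lowest tertile (10.1 to 172 units) the median was -0.38 and 65.1% were below 0. Genes of the highest range on other chromosomes (5381) had a median of -0.05, with 57.4% below 0 and 26.5% called lower. Those of chromosome 12 before ATF1 (95) had a median of 0.00, with 49.5% below 0 and 21.1% called lower. Protein-coding members had a median of -0.55 and lncRNA members -0.42, against -0.01 and 0.22 for the same classes on other chromosomes.

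**Figure D3:**
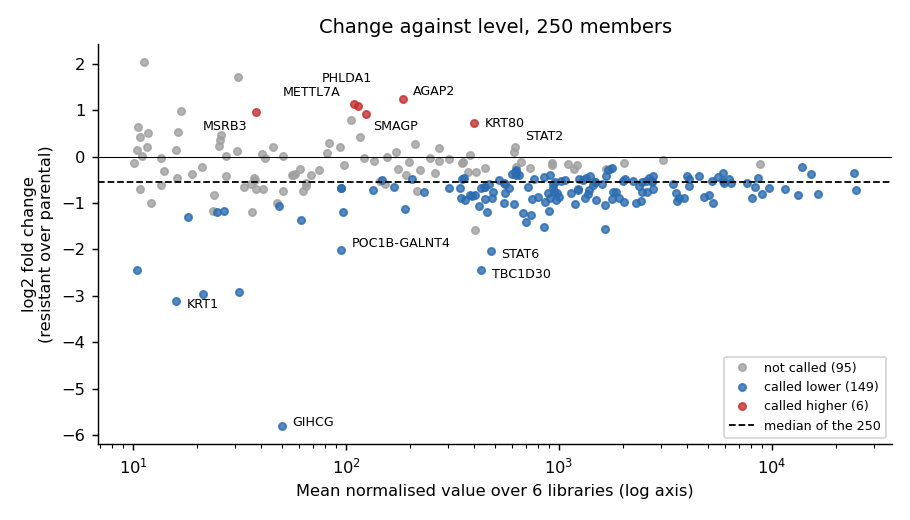
Log2 fold change (resistant over parental) of the 250 members against their mean normalised value over 6 libraries on a log axis, coloured by the limma call. High-level members form a narrow band around the median of -0.54. Most members above 0 and most of the farthest below it sit to the left, while STAT6 and TBC1D30 lie near the middle of the axis.

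Cell cycle genes followed the shift. Of 12 listed members 10 were called lower, and the median was -0.63. For this and every list below, 59.6% of all members and 19.8% of all genes tested were called lower. The members were chosen by this contrast, so nothing is read from the counts of a list. In this and the following lists, members called higher are named, and where there was none by limma, 0 members of the list were higher at an unadjusted p under 0.05. CDK4 (chr12:57747727-57756013), the cyclin D partner kinase of G1, had 6403, 6008 and 6255 units in the parental libraries and 3553, 2980 and 3653 in the resistant ones. The groups were far apart, at a log2 fold change of -0.88 ± 0.08 (SE). CDK2, which acts with cyclins E and A in S phase, went from 2906 ± 29.8 to 1975 ± 103 (SD, n = 3). TIMELESS, a component of the replication fork protection complex, had 4818, 4566 and 4877 units against 2570, 2563 and 2570, a change of -0.89 ± 0.06. ESPL1, which encodes separase, the protease that opens cohesin at anaphase, went from 4126 ± 282 to 2758 ± 180. In each of these genes every resistant library lay under every parental one. PRIM1, the catalytic primase subunit, was among the pair not called, with 1134, 915 and 905 units against 885, 820 and 893, along with the ciliary gene CEP290 at -0.24.

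Members of the list around MDM2 and cell death were mostly lower as well, with 7 of 9 called lower and 1 called higher at a median of -0.52. MDM2 (chr12:68808177-68845544) had 3085, 2813 and 3120 units in parental and 2215, 2226 and 1876 in resistant libraries, which do not overlap. Its paralog MDM4 (0.04), on chromosome 1, was not called. DDIT3, which encodes the stress factor CHOP, fell by more than the median of the interval, from 259 ± 15.4 to 118 ± 16.4 units (log2 fold change -1.14). PAWR, a pro-apoptotic gene, was at 59.1% of its parental mean. The gene called higher was PHLDA1, described further down.

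All 16 listed genes of translation and RNA handling were called lower, with a median of -0.59 and a range of -1.16 to -0.36. HNRNPA1, an abundant splicing regulator, had 30366, 25921 and 25393 units in parental libraries and 21530, 20574 and 21310 in resistant ones. PCBP2, a poly(C)-binding protein gene, was at 16879 ± 627 against 9531 ± 391. In both genes every resistant library lay under every parental one. TARBP2, a partner of Dicer, was at 44.5% of its parental mean, the lowest of the list. RPS26 and RPL41, which encode ribosomal proteins, were at 53.4% and 73.8%. HNRNPA1, RPS26 and RPL41, like KRT8 and KRT18 further down, have processed pseudogenes elsewhere in the genome, and their values are less certain because the quantification shares reads among copies.

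Genes of protein folding, ubiquitin and vesicle traffic had the lowest median of these lists, with 14 of 15 called lower and a median of -0.66 where the median of all members was -0.54. CCT2, a chaperonin subunit gene, had 11259, 9295 and 10209 units against 6861, 6265 and 6276. COPZ1, a COPI coat subunit gene, was at 51.3% of its parental mean and OS9, a lectin of endoplasmic reticulum degradation, at 50.4%. The member not called was MON2, a Golgi traffic gene, at -0.16.

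Of 14 mitochondrial and metabolic members tested, 8 were called lower, beside 149 of all 250 members, with a median of -0.52. ATP5F1B, the catalytic beta subunit of ATP synthase, had 32194, 30042 and 30674 units in parental and 19552, 17949 and 19039 in resistant libraries. The resistant libraries lay close together and well under the parental ones. CS, the citrate synthase gene, was at 67.1% and SHMT2, the mitochondrial serine hydroxymethyltransferase gene, at 67.1% of the parental mean. NDUFA4L2, a hypoxia-inducible paralog of a cytochrome oxidase subunit, fell further, from 1668, 3602 and 2145 to 664, 1001 and 764 units, with parental library 2 the highest. LETMD1 (0.09) and SLC16A7, a monocarboxylate transporter gene (0.04), were not called.

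Chromatin and transcription genes gave 11 of 15 called lower at a median of -0.53. CBX5, the HP1 alpha gene, was at 76.9% of its parental mean, and SP1, a general activator of GC-rich promoters, at 69.6%. NAP1L1, a histone chaperone gene, had 15165, 13828 and 13633 units in the parental libraries against 8711, 8916 and 8761. HMGA2, an architectural factor that is itself at a low level here, had 28.6, 28.4 and 40.2 units against 8.43 to 24.6 and was not called.

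Of 11 tested receptors, ligands and growth signalling genes 6 were called lower, with a median of -0.53, where 149 of all 250 members were called lower. ACVR1B, an activin receptor gene, was at 58.2% of its parental mean. ERBB3, a receptor of neuregulins, had 1898, 2351 and 2084 units in parental and 1826, 2014 and 1905 in resistant libraries, which overlap. LRP1, an endocytic receptor of the LDL receptor family, had 2776, 3346 and 3304 against 2711, 3497 and 2779. KITLG, the ligand of the receptor KIT, was not called at -0.26, while KIT itself, on chromosome 4, was called lower at -0.61. Both ERBB3 and LRP1 belong to the highest tertile by level, where 8 of 84 were not called.

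STAT2 and STAT6, which have other members between them, differed in their change. STAT6 (chr12:57095408-57132139), which carries interleukin 4 and 13 signals, had 720, 876 and 707 units in the parental libraries and 202, 171 and 187 in the resistant ones. The resistant cells kept 24.3% of the parental mean, a log2 fold change of -2.03 ± 0.13. STAT2 (chr12:56341597-56360203), a component of the interferon-stimulated transcription complex ISGF3, had 578, 608 and 544 units against 635, 702 and 649. It was the reverse of its surroundings, every resistant library above every parental one, but at 0.20 ± 0.09 it was not called. IL23A, next to STAT2, had 20.9 to 25.7 units against 23.7 to 30.8 and was not called either. STAT6 overlaps NAB2 (called lower, -0.68) and LRP1 on the opposite strand, and reads of overlapping genes cannot be told apart where strand was not used in counting. Of 7 listed interferon and innate signalling genes tested 3 were called lower, beside 149 of all 250 members. IFNG, IL22 and IL26 were under the mean of 10.

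Neuronal and secretory members included AVIL (chr12:57797376-57818734), an actin regulator that marks tuft cells, at 20123, 21748 and 20990 units in parental and 12046, 11741 and 12266 in resistant libraries. Its fall of 0.80 on the log2 scale was larger than the interval's median, and it overlaps TSFM, also called lower. In this list 6 of 14 tested members were called lower and 1 higher, beside 149 and 6 of all 250 members, at a median of -0.37. SLC4A8, a sodium-driven bicarbonate exchanger gene, and SCN8A, a sodium channel gene, were at 34.1% and 44.5% of their parental means. SYT1, a synaptic vesicle calcium sensor, had 381 to 435 units against 301 to 377 and was not called. GRIP1, a synaptic scaffold gene, had 1986 units in parental library 2 against 98.1 and 82.7 in the other two and 71.6 to 95.5 in resistant cells, so its mean rested on 1 library, and it was not called.

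The HOXC cluster was expressed. Of 10 listed genes 6 were called lower, beside 149 of all 250 members, with a median of -0.44. HOXC4 had 763, 742 and 689 units against 326, 382 and 391. HOXC9 was at 54.1% of its parental mean. Both encode homeobox factors of body axis patterning, and in both the groups did not overlap. HOXC5, which lies inside the HOXC4 gene on the same strand, had 204, 274 and 284 units against 232, 301 and 339 and was not called. HOTAIR, a lncRNA transcribed antisense in the cluster, was not called at 14.5 to 28.6 against 18.3 to 46.4 units.

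The keratin cluster was mostly silent, with 6 of 27 listed keratins above the mean of 10. KRT8 and its partner KRT18, the simple epithelial pair, moved less than their surroundings. KRT8 had 15631, 14499 and 14484 units against 13465, 11635 and 13249 and was called lower at -0.22, a call that was lost without parental replicate 1 or 3 or resistant replicate 8. KRT18 was at 89.9% of its parental mean and was not called. KRT80, an epithelial keratin, was called higher, with 286, 344 and 272 units against 429, 498 and 565. KRT1, a keratin of the epidermis, had 22.4, 31.5 and 30.5 units against 6.67, 0 and 3.93.

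**Figure D4:**
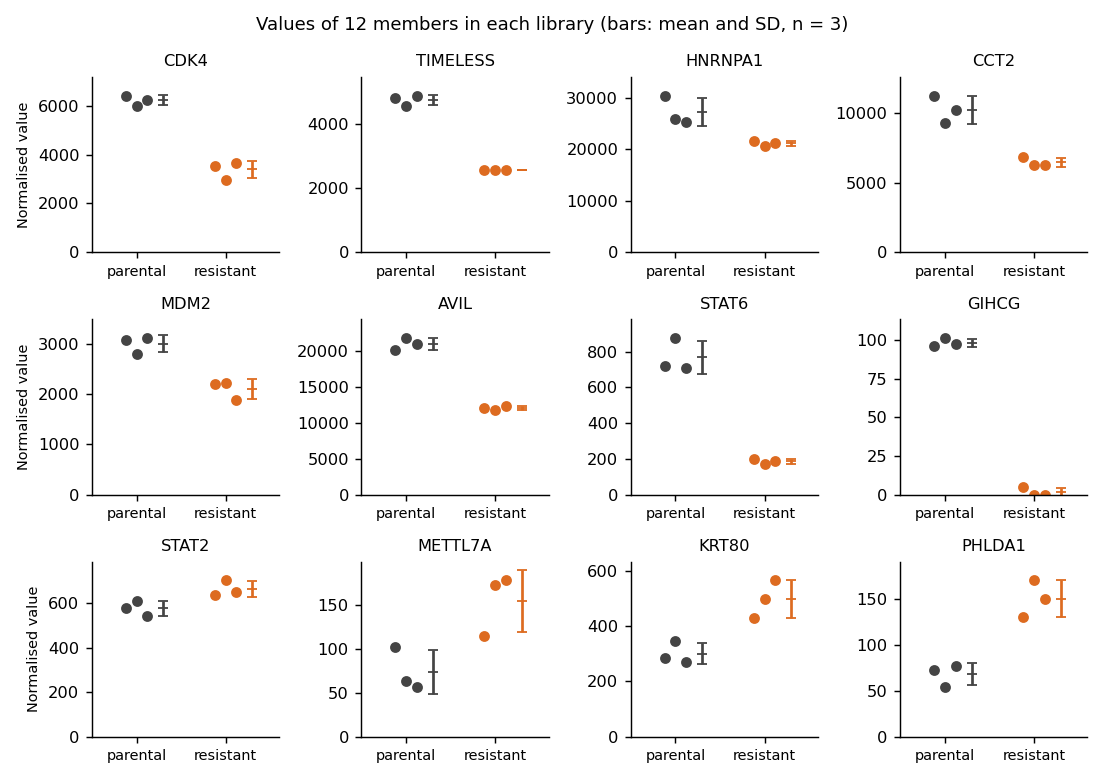
Normalised values of 12 members in each parental (grey) and resistant (orange) library, with bars for the mean and SD of 3 libraries; each panel has its own axis from 0. CDK4, TIMELESS, HNRNPA1, CCT2, MDM2 and AVIL are lower, at 54.0% (TIMELESS) to 77.6% (HNRNPA1) of the parental mean, STAT6 and GIHCG are lower still, and STAT2, METTL7A, KRT80 and PHLDA1 are higher.

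Members were then set beside their partners in 19 listed complexes and families. Of 22 members in these lists, 20 had a log2 fold change below the median of their partners outside the interval, and 19 were called lower. The members come from an interval chosen for its negative changes and their partners do not, so these counts are largely fixed by that choice and nothing is read from them. The median of the 22 was -0.55, the median over the 109 partners was -0.08, and the median gap between a member and its own partners was -0.53. Of the 109 partners, 36 were called lower, where 19.8% of all genes tested were, and 17 higher, where 17.8% were. On chromosome 12 outside the interval lie 4 partners: NUP37 (-0.41) and SMARCD1 (-0.44), both called lower, and EP400 (-0.15) and ARID2 (0.15), neither called. The exceptions were STAT2 (0.20 against 0.17) and KITLG (-0.26 against -0.61).

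The distance from the partners differed between complexes. CCT2 stood at -0.66 where the 7 other chaperonin subunits had a median of -0.11, although CCT5 on chromosome 5 was lower still at -0.89 and CCT8 on chromosome 21 was called higher at 0.89. PFDN5 stood at -0.77 against -0.14 for the rest of prefoldin, its cochaperone. ATP5MC2 (-0.95) and ATP5F1B (-0.72) stood below a median of -0.21 for 13 other ATP synthase genes. In these assemblies the member lay below all of its partners or all but 1. COPZ1 stood at -0.96 against 0.02 for the rest of the COPI coat, where its paralog COPZ2 on chromosome 17 was called higher at 1.11. COPZ2 was at a low level, with means of 21.7 units in parental and 47.4 in resistant cells, where COPZ1 had 3199 and 1641. TIMELESS stood at -0.89 beside TIPIN, its direct partner on chromosome 15, at 0.08 (not called). TIMELESS and TIPIN bind each other at the replication fork. CDK4 and CDK2 stood at -0.88 and -0.56 against a median of 0.05 for 6 other G1 and S phase kinases and cyclins, of which only CDK6 on chromosome 7 was lower, at -0.98. NUP107 stood at -0.64 against 0.05 for 9 other genes of the nuclear pore Y complex. Closer to their partners were DCTN2 at -0.47 against -0.26 for the rest of dynactin, YEATS4 at -0.51 against -0.24 for 10 other chromatin complex genes, CBX5 at -0.38 against -0.10 for the other HP1 genes and NACA at -0.49 against -0.20 for its 1 partner. PRIM1, not called at -0.18, stood beside a partner median of 0.03.

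**Figure D5:**
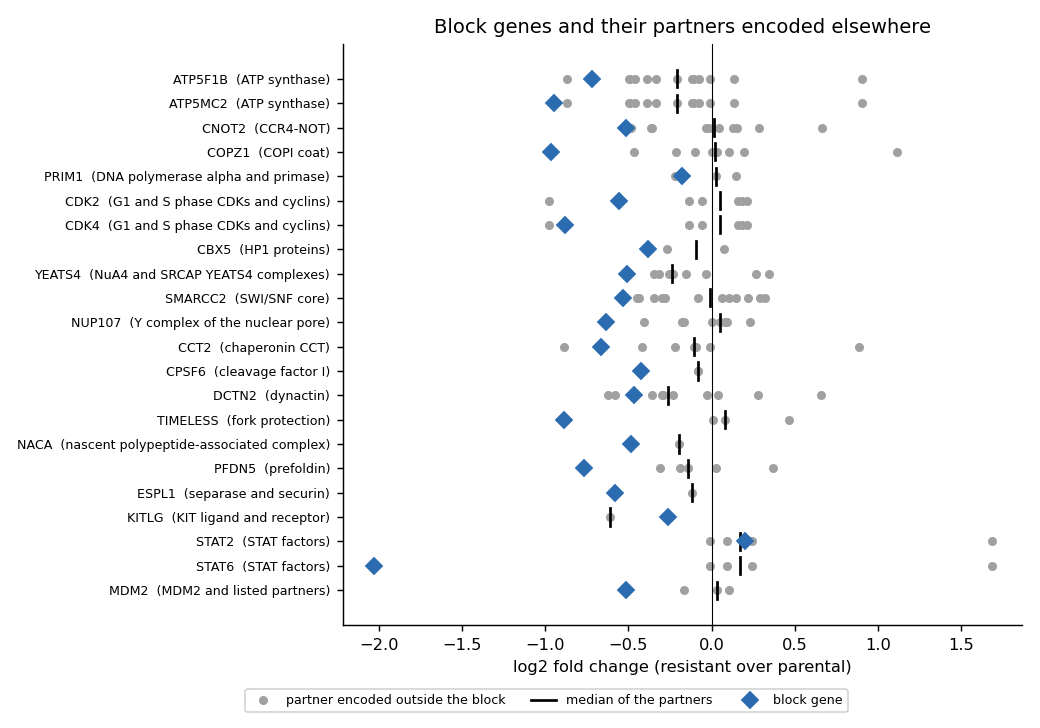
Log2 fold change (resistant over parental) of 22 members (blue diamonds), of their partners encoded outside the interval (grey) and the median of those partners (black bar), by complex or family. In 20 of the 22 lines the diamond lies left of the bar.

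The members that stood outside the shift were few and mostly at low levels. At or above 0 were 36 members, 28 protein-coding and 8 lncRNA genes, with a median level of 42.7 units against 670 for the 214 below 0. Of the 36, 19 had a mean under 50. They were scattered, and only 3 pairs were neighbours: ENSG00000257663 with KRT80, HOXC5 with FLJ12825, and IL23A with STAT2. The highest log2 fold change of all, 2.03 for ENSG00000257411, came from a single resistant library with 67.8 units where the other 5 libraries had 0, and it was not called. A value at or above 0 at these levels often lies within the spread of its libraries, as for the developmental factor gene ALX1, at 21.3 to 34.7 units against 26.0 to 28.2.

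Of these members, 6 were called higher, where 17.8% of all genes tested were. METTL7A (chr12:50923472-50932510), a methyltransferase gene of lipid droplets and endoplasmic reticulum, had 102, 62.8 and 56.3 units against 114, 172 and 178. SMAGP, a small transmembrane adhesion glycoprotein gene, had 88.0, 80.1 and 88.0 against 170, 163 and 155. PHLDA1 (chr12:76025447-76031776), a pleckstrin homology-like domain gene induced by growth signals, had 72.7, 54.5 and 76.8 against 130, 170 and 150. In all 3 every resistant library lay above every parental one.

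AGAP2, an Arf GTPase-activating protein gene, had 166, 116 and 61.7 units against 234, 286 and 241, and MSRB3, a methionine sulfoxide reductase gene, had 27.2, 31.7 and 18.2 against 59.9, 51.1 and 39.5. KRT80 was the most abundant of the 6. Their log2 fold changes ran from 0.72 (KRT80) to 1.25 (AGAP2). The call of MSRB3 was lost without parental replicate 1 or 3 or resistant replicate 7 or 8. SMAGP overlaps DAZAP2, and AGAP2 overlaps OS9 and TSPAN31, on the opposite strand, and these 3 neighbours were called lower.

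Promoter sequence was compared between members on either side of 0. The window ran from 250 bases before to 50 after the start of each gene's canonical Gencode transcript. The 214 members below 0 had a median of 22 CG dinucleotides in it and the 36 at or above 0 a median of 13, against 26 over all genes tested. The lowest tertile by mean value had a median of 15, where all members had 21.5. Within that tertile the medians were closer, at 15.5 for 54 members below 0 and 12 for 29 members at or above 0. The 6 members called higher, of which KRT80 and AGAP2 lie above that tertile, had a median of 25. Of 3 motifs sought on both strands, TATAAA was in 7.01% of members below 0, in 16.7% of those at or above 0 and in 6.20% of all promoters, but within the lowest tertile its shares were 16.7% and 17.2%. GGGCGG was in 65.4% and 47.2%, and in 69.9% of all, while within the lowest tertile the order was the other way, at 40.7% and 48.3%. CCAAT was in 42.1% and 22.2%, and in 35.3% of all, and stood at 42.6% and 20.7% within the lowest tertile. The 6 members called higher held TATAAA in 0, GGGCGG in 4 and CCAAT in 2 promoters. None of these differences was tested.

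The 250 bases before the start of 4 members are shown to set a gene that followed the shift (CDK4) beside one that was not called (STAT2) and a pair called higher (PHLDA1 and METTL7A, the latter listed by RefSeq as TMT1A). They are RefSeq promoters on GRCh38.p14, 5′ to 3′ on the gene's strand, and capitals mark CG dinucleotides. RefSeq starts need not be the Gencode starts used for the comparison above. The windows of CDK4 and METTL7A lie inside the Gencode spans of these genes, and that of STAT2 does in part. The windows are chr12:57752311-57752560 (minus strand) for CDK4, chr12:56360108-56360357 (minus strand) for STAT2, chr12:76031777-76032026 (minus strand) for PHLDA1 and chr12:50924765-50925014 (plus strand) for METTL7A.
CDK4: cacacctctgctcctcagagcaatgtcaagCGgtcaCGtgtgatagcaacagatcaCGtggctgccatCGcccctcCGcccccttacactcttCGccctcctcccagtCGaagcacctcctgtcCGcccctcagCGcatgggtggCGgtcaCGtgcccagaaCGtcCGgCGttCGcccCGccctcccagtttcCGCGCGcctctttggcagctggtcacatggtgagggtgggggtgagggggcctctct
STAT2: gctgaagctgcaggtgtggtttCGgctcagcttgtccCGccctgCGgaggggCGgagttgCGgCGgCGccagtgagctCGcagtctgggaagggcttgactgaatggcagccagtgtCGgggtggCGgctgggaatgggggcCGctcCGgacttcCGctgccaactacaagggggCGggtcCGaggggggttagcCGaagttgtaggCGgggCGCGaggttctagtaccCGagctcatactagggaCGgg
PHLDA1: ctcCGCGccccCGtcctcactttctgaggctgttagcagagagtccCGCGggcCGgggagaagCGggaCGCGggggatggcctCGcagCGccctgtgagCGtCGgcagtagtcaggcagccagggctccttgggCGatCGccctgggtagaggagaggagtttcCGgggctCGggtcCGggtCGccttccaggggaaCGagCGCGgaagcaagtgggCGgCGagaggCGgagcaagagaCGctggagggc
METTL7A: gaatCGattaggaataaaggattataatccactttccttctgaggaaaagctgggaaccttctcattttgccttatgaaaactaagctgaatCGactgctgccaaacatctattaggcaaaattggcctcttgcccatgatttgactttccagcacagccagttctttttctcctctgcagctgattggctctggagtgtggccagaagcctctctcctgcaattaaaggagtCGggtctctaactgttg
They hold 19, 21, 26 and 3 CG dinucleotides in that order, so the pair called higher has both the most and the fewest of the 4.

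Some members fell well past the shift. Below -1 were 31 members and below -2 were 8, all 8 of them called lower, where 19.8% of all genes tested were. Genes of other chromosomes also reached such values, and nothing is read from these counts. Of the 8, GIHCG, KRT1, ENSG00000257921, ENSG00000243024 and ENSG00000289384 had resistant means under the filter of 10. They passed it only through their parental values, so nothing is read from their calls. GIHCG (chr12:57930115-57936345), a lncRNA gene, had 96.1, 101 and 97.3 units in parental libraries and 4.60, 0 and 0 in resistant ones, which left 1.56% of the parental mean. The fitted log2 fold change of GIHCG depends on the pseudocount and was -8.09 at 0.1 and -3.25 at 10. It overlaps ATP23 on the opposite strand, which was called lower at -0.59. TBC1D30, a Rab GTPase-activating protein gene, had 834, 659 and 686 units against 127, 145 and 123, or 18.1% of the parental mean.

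STAT6 and TBC1D30 were the only 2 of the 8 with a mean above 100 units. POC1B-GALNT4, a read-through of neighbouring genes that shares exons with both, had 196, 137 and 109 units against 78.5, 19.0 and 27.2, and its reads may be divided differently among POC1B (-0.59), GALNT4 (0.29, not called) and the read-through by the quantification. The others were KRT1, ENSG00000257921, ENSG00000243024 and ENSG00000289384, with parental means of 28.1, 38.5, 56.4 and 18.0 units and resistant means of 3.53, 4.27, 6.79 and 2.84. ENSG00000257921 shares its strand with TSFM and EEF1AKMT3, which it overlaps. Between these and the bulk of the interval stood members such as BLOC1S1, a lysosome-related organelle gene, at 37.7% of its parental mean, and GDF11, a growth factor of the TGF-beta superfamily, at 49.4%.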

How the data were processed

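RNA of 3 parental and 3 resistant H526 libraries was analysed. The authors trimmed reads with Trimmomatic 0.38, quantified them with RSEM 1.3.1 and STAR on GRCh38 with Gencode 43, and deposited a normalised signal per gene and library, scaled with DESeq2 1.30.0. Of low values, 45.0% to 59.8% were whole multiples of 1 read (tolerance 0.05), so reads per gene could not be rebuilt and count tests were not used. Whether counting used strand is not given in the sources used here. Of 62757 rows, 47 second copies of pseudoautosomal genes were left out. Positions came from Gencode 44, matched without version, for 62639 rows.

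Genes with a mean of at least 10 entered a limma fit (version 3.58.1, under R 4.3.3) of log2(value + 1), with a trend on intensity and adjustment by Benjamini-Hochberg at 0.05 over all 16347. A fold change on this scale understates that of low genes. Segmentation allowed at least 20 genes a run, at a cost of 3 log(n) b for a change, b being the mean absolute difference of neighbours divided by 1.5, and took runs with a median under -0.25. Both steps were tested on simulated data. Floors (3 reads) cover counting error only. The SDs were taken over the libraries of a group and the SEs from the limma fit, so both describe spread between libraries.

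The interval, the members and the gene lists were chosen with earlier results of these data known. Named genes were, by rule, the 3 tested genes on either side of each edge, the 8 farthest members on each side of 0 among those whose groups do not overlap, the 3 most abundant of each list, 16 fixed genes and the members of the partner lists. Other members named were chosen after their values were seen. The settings varied were the pseudocount (0.1 or 10), the filter (none, or a mean of 50), trimmed mean scaling, quantile normalisation, no trend, protein-coding genes only, other segment lengths and costs, and each library left out. Positions and medians were handled in Python 3.11.15 (numpy 2.4.6, pandas 2.3.3) and drawn with matplotlib 3.10.9.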

Additional observations from a re-analysis of the deposited data

How the results depend on the processing

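The median log2 fold change of the members stayed negative under every alternative run. It was -0.43 with no filter on low values, where 427 members entered, and -0.55 to -0.53 with 1 library left out. The share of members below 0 was 91.5% at a minimum mean of 50, 75.2% with no filter, 89.2% after quantile normalisation and 84.0% to 86.7% with 1 library left out. Members called higher numbered 11 with no filter and 5 to 7 with 1 library left out, and members called lower 138 to 144 with 1 library left out.

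The left edge moved to SMARCD1, 50.1 Mb, with no filter and at a pseudocount of 10, and lay between 50.1 Mb and 51.0 Mb with 1 library left out, at 50.1 Mb without parental replicate 2 or parental replicate 3. The cause was not tested. The last gene tested ended the shift under every alternative run. In the partner lists, 20 to 21 of 22 members lay below their partners' median with 1 library left out. No gene named by rule changed direction. The calls of KRT8 and MSRB3 were also lost with no filter and after quantile normalisation, that of KRT8 also without the trend. The calls of HOXC10, YEATS4 and ZNF268 were each lost under some alternatives, and KITLG, HMGA2 and SYT1 were each called lower under some.

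No paired analysis was possible because the parental libraries are numbered 1 to 3 and the resistant ones 7 to 9, so the groups share no replicate number. The study calls the parental and resistant cells matched, but which library goes with which is not given in the sources used here. Groups of 3 libraries were too small for a check for outlying libraries, and low members are limited by depth.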

Other observations

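Most annotated rows of the interval were not expressed in either group. Its olfactory receptor genes, 30 rows of a family that detects odorants, were at 0 in all 6 libraries for 29 rows, and none reached a mean of 10. Of the 624 rows under a mean of 10, 177 had some signal, and 105 of these had a lower mean in the resistant libraries. None of the rows under the mean was above 3 reads in every parental library and at or under it in every resistant one, and 2 showed the reverse.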
